A study of Mus musculus with 32 samples.

Results

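Gene expression after 6 h of PCI-32765 was measured on 2 of the 32 arrays of a series on ATM-deficient B cell lymphomas. Both arrays were chosen by title: each hybridised RNA of a lymphoma cell line held for 6 h in 100 nM PCI-32765 (ibrutinib), labelled red (Cy5), against RNA of the same line held for 6 h in its vehicle, DMSO, labelled green (Cy3). The lines, 178119 and 28545, are spleen-derived B cell lymphomas of strain ATMKO.CD3epsilonKO, so drug and vehicle cells alike lack ATM and CD3 epsilon by genotype, and the drug is the only labelled difference within an array. The comparison asks which genes moved alike in both lines at 6 h, and which of those had not yet moved at 3 h. The arrays of the same lines at 1, 3 and 24 h, 1 per line and time, were used to set the 6 h values in time.

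Btk is the cytoplasmic tyrosine kinase that links the B cell receptor to phospholipase C gamma, and through it to calcium, ERK and NF-kappaB. PCI-32765 binds a cysteine of its active site covalently and blocks this signal. In B cells the first transcripts to answer the receptor are the immediate early genes, among them Egr1, Fos and Myc. NF-kappaB targets follow, and MYC in turn raises genes of ribosome biogenesis, nucleotide synthesis and metabolism, while FOXO factors, held out of the nucleus when phosphoinositide 3-kinase is active, raise a separate set.

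All values are log2 ratios of PCI-32765 over DMSO, so that 1 is a 2-fold increase and -1 a 2-fold decrease. A group value is the mean of both lines (n = 2) with the standard error (SE) of a limma fit over the 8 PCI-32765 arrays. Each line gave 1 culture per time, so the error is the spread between lines. The drug was always red, with no dye swap. A dye effect of a gene therefore sits in its 6 h value, and cancels only in a difference between times. All 8 drug arrays came from 1 slide and 1 scan. Of 59305 spots that are no controls, between 45.6% and 52.99% were well above background in the red channel on 7 of the 8 arrays, and 85.5% on the array of line 28545 at 24 h. The array of line 178119 at 1 h had the most outlier spots, 3.24%, against at most 1.22% on the others. The 11 B cell markers (Cd79a, Cd22, Ms4a1 and others) were well above background on both 6 h arrays. Of 15 T cell markers, 11 were above background too, Cd3e among them, but Cd8a, Trat1, Thy1 and Bcl11b were above it on neither array. Whether the probes for Atm and Cd3e lie in the deleted parts of those genes is not given in the sources used here, so they check nothing. At 6 h Atm stood at 0.40 in line 178119 and 0.32 in line 28545, and Cd3e at 0.11 and -0.15, and neither passed the test.

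Line 178119 stood apart in 1 respect. In it 160 genes were at -0.58 or lower at 3 h and at 0.58 or higher at 6 h, while no gene did so in line 28545. Their median in line 178119 went from -0.86 at 1 h and -0.77 at 3 h to 1.103 at 6 h and 0.00 at 24 h, against -0.30, -0.03, 0.28 and -0.33 in line 28545. The set held 16 histone genes, 2 small nuclear RNA genes and 50 long non-coding RNA intervals, and 20 of its members are among the genes that moved alike, below. Its part in the results was not tested.

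At 6 h, 4872 of 19295 genes passed the limma test at an adjusted p of 0.05 (25.3%), 2422 higher (12.6%) and 2450 lower (12.7%). Both lines lay on the same side of 0 for every one of them. The test is of the mean of both lines, so genes with lines on opposite sides could hardly pass, and nothing is read from this. The log2 ratios of the lines correlated across all genes tested with r = 0.73, a description of 2 arrays that share slide, dyes and probes. With the spread taken from the other times, the count was 1495 without the 6 h array of line 178119 and 2956 without that of line 28545. Values at 6 h were wider in line 178119 than in line 28545, with standard deviations over genes of 0.42 and 0.35. Of the genes tested, 2757 reached 0.58 in line 178119 and 1717 in line 28545. No gene reached 0.58 on opposite sides in the lines. A line term over all 4 times called no gene with limma, while 667 genes had an unadjusted p below 0.05, and the smallest adjusted p was 0.917. At 6 h alone, with 1 array per line, the lines cannot be tested against each other.

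Genes are said to have moved alike when they passed the test and reached 0.58, about 1.5-fold, on the same side in both lines. This held for 1140 genes (5.91%), 434 higher and 706 lower. Their directions were recomputed under other scalings. With the scanner's own log ratios all 706 lower and all 434 higher genes kept their sign, and 584 and 376 of them passed the test. With median centring in place of loess, 704 and 434 kept their sign, and 295 and 434 passed. The split of all calls is less stable: 50.3% of the calls at 6 h were lower with loess, 32.9% with the scanner's log ratios and 7.38% with median centring, where the median over all genes lay at 0.14 and 0.25 in place of 0.01. Relative to those medians, all 1140 genes kept their direction under each scaling. Nearest inside the limit of 0.58 lay Relt (-0.58 and -0.61 in lines 178119 and 28545), Padi3 (1.04 and 0.58) and Gid4 (-0.62 and -0.58). Nearest outside it lay the probe NAP061301-1, which has no gene symbol (-0.63 and -0.58), Pnmal1 (0.85 and 0.58) and Nkpd1 (1.00 and 0.58).

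**Figure D1:**
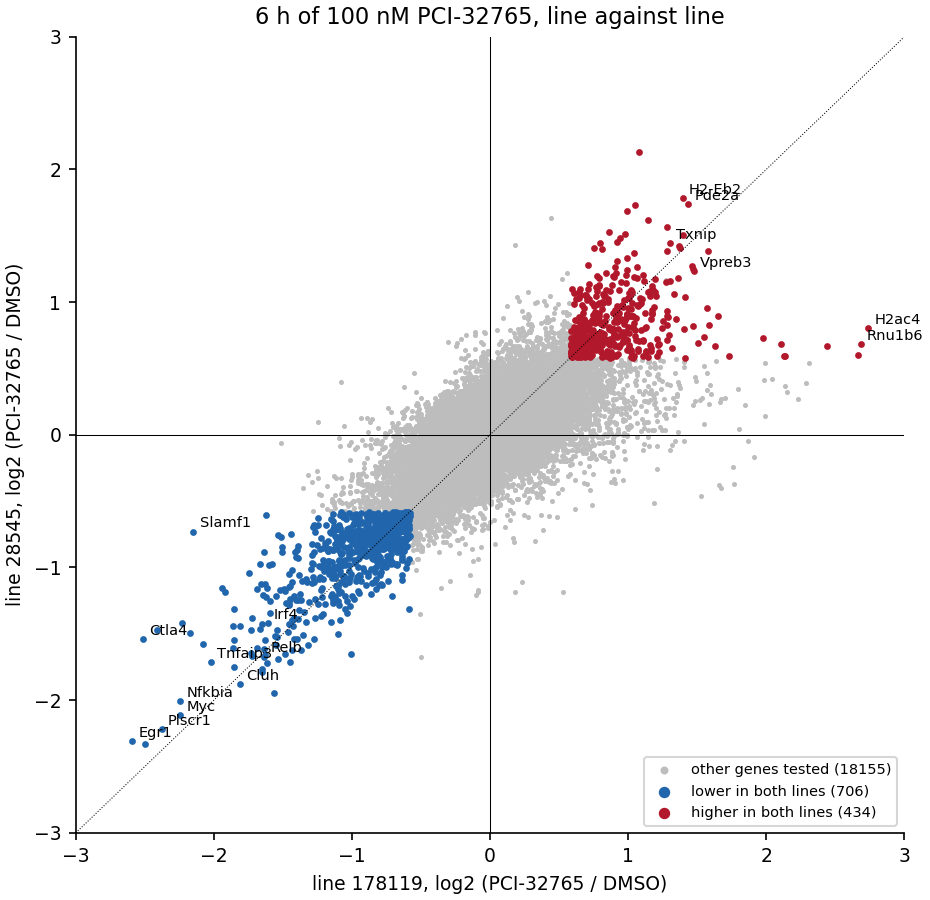
Log2 ratio of PCI-32765 over DMSO at 6 h in line 178119 (x axis) and line 28545 (y axis), 1 point per gene, with the 706 genes lower and the 434 higher in both lines in colour and the dotted line marking equal values. Egr1, Plscr1, Myc and Nfkbia lie at -2.01 or lower in both lines near the diagonal, whereas H2ac4 and Rnu1b6 lie far to the right of it, at 2.74 and 2.68 in line 178119 and 0.80 and 0.68 in line 28545.

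The immediate early genes were lower. Of 23 tested, 15 fell and 1 rose at 6 h, with a median of -0.69 against 0.01 over all genes tested. Beside this and each list count with loess below stand the shares over all genes tested, 12.6% higher and 12.7% lower. List counts under other scalings have another base. Over all 19295 genes median centring called 4094, 7.38% of them lower. The scanner's log ratios called 2298, 32.9% of them lower. With median centring 10 of the 23 immediate early genes were lower. Egr1, a zinc finger factor, gave -2.59 in line 178119 and -2.31 in line 28545, the lowest mean of any gene named here (-2.45, SE 0.14, adjusted p = 3.37e-05, limma). Its normalised signal on the log2 scale was 9.30 with drug and 11.89 with DMSO in line 178119, and 10.01 and 12.31 in line 28545. Both drug channels were thus dimmer than both DMSO channels. Myc, the factor that drives growth genes, read by a probe at chr15:61821417-61821476 (mm9), gave -2.25 and -2.11 (mean -2.18, SE 0.11, adjusted p = 2.44e-05), a 4.53-fold decrease, again with little between the lines. Its log2 signal was 10.61 with drug and 12.86 with DMSO in line 178119, and 11.06 and 13.18 in line 28545.

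The AP-1 subunits fell together. Fosb gave -1.63 and -1.54, Junb -0.98 and -1.24, Jun -1.05 and -0.94, and Fos -1.08 and -0.90 in lines 178119 and 28545. Egr2 gave -1.58 and -0.98, with a log2 signal under drug of 6.60 in line 178119, among the dimmest, and 8.78 in line 28545. Nr4a1, an orphan nuclear receptor used as a reporter of receptor signalling, gave -0.72 and -0.93 (mean -0.83, SE 0.19, adjusted p = 0.0116). Ier3, an early survival gene, gave -1.63 and -1.13. The gene that rose was Btg2, an antiproliferative gene, at 0.33 and 0.61. Srf, Klf2, Klf4, Ier5, Zfp36, Nr4a2 and Klf10 did not pass. Of 13 feedback genes of ERK 5 fell (1 with the scanner's log ratios and 1 with median centring), led by Phlda1 at -0.96 and -1.18, and Dusp6, a phosphatase of ERK, gave -0.28 and -0.22 and did not pass (adjusted p = 0.0819).

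These genes were already low before 6 h. Egr1 stood at -2.45 and -2.38 at 1 h and at -3.78 and -3.13 at 3 h in lines 178119 and 28545. Egr2 went from -2.35 and -2.59 at 3 h to -1.58 and -0.98 at 6 h, and Fos from -1.78 and -1.74 to -1.08 and -0.90. In both lines Egr1, Egr2 and Fos were thus nearer to 0 at 6 h than at 3 h. The list as a whole was not: its median was -0.25 at 1 h, -0.60 at 3 h, -0.69 at 6 h and -0.23 at 24 h. The difference of 6 h minus 3 h was 1.01 for Egr1 (unadjusted p = 0.000572), 1.19 for Egr2 and 0.77 for Fos, and none passed after adjustment (adjusted p = 0.133 for each, limma). Of the 11 immediate early genes that moved alike at 6 h, 10 were already at 0.58 or more on the same side in both lines at 3 h.

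Promoters of 4 lower genes are shown, each with a motif match close to the start. The genes were picked, by low 6 h means, among those whose promoter held a match, so the pairing of motif and decrease comes from the choice. Whether these motifs have a part in the decrease was not tested. Each sequence runs 5′ to 3′ over the 250 bases before the gene's start in RefSeq (GRCm38.p6), with the match in capitals. The kappaB motif was GGG, any 2 bases and TTTCC, the EGR motif GCGNGGGCG and the E-box, which MYC and other factors bind, CACGTG, each searched on both strands. Nfkbia lies at chr12:55492648-55492897 on the minus strand and Tnfaip3 at chr10:19015411-19015660 on the minus strand, each with a kappaB match. Fosb lies at chr7:19310046-19310295 on the minus strand with an EGR match, and Cluh at chr11:74649254-74649503 on the plus strand with an E-box.
Nfkbia: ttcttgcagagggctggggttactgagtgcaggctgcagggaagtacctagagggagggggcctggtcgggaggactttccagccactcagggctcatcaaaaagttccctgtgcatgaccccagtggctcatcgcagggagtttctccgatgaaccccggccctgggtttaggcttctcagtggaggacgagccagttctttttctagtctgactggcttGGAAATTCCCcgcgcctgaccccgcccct
Tnfaip3: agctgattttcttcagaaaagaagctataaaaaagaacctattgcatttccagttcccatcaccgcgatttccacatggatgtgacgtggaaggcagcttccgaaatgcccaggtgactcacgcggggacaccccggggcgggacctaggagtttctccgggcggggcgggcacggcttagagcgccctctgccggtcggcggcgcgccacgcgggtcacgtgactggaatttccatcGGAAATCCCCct
Fosb: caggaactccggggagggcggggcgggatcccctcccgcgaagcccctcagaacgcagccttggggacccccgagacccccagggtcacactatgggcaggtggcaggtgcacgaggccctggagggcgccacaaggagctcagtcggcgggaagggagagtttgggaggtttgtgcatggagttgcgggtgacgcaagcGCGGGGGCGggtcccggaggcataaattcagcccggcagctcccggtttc
Cluh: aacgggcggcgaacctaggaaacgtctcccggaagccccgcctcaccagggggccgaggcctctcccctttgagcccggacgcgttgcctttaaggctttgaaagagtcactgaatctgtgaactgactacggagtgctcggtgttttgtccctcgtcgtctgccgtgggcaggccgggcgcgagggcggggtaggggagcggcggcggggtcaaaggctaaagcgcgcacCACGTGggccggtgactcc

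The EGR letters were found in 9 of 24 promoters of immediate early genes (37.5%). They were in 8.31% of the promoters of all genes tested and in 4.70% of all 32851 promoters of the table. For the genes lower alike the EGR share was 8.82% and for those higher alike 9.02%, both near that of all genes tested. The kappaB letters were found in 4 of 13 promoters of the NF-kappaB list (30.8%), against 1.45% for all genes tested and 1.41% of all promoters. That list was drawn up as targets of NF-kappaB, so nothing about the drug is read from its share. The kappaB share was 2.50% for the genes lower alike and 1.37% for those higher alike. The E-box was found in 13.0% of the promoters of the genes lower alike, in 6.01% of those of the genes higher alike, in 8.06% of those of all genes tested and in 6.02% of all promoters. The letters of AP-1 (TGANTCA), CRE (TGACGTCA) and FOXO (GTAAACA) were searched too. They were in 3.33%, 1.66% and 3.00% of the promoters of the genes lower alike. For the genes higher alike the shares were 6.28%, 1.64% and 1.91%, and for all genes tested 4.67%, 2.56% and 2.21%. Of 17 promoters of the FOXO list 1 held the FOXO letters (5.88%). These shares describe letters in a window, not bound sites. RefSeq promoters were matched for 10434 of the 19295 genes tested and for 277 of the 434 genes higher alike.

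The NF-kappaB targets were lower too. Of 15 tested, 14 fell at 6 h and none rose, with a median of -0.90. None was higher and 11 were lower with the scanner's log ratios, 7 with median centring. Nfkbia, which encodes the inhibitor IkappaB alpha and is itself switched on by NF-kappaB, gave -2.25 in line 178119 and -2.01 in line 28545 (mean -2.13, SE 0.15, adjusted p = 5.97e-05), a 4.37-fold decrease. Tnfaip3, the ubiquitin-editing enzyme A20 that ends NF-kappaB signalling, gave -2.02 and -1.71 (mean -1.87, SE 0.15, adjusted p = 8.02e-05). Both inhibitors fell with the subunits of the pathway: Relb gave -1.63 and -1.67, Nfkb2 -1.43 and -1.62, and Nfkb1 -0.76 and -0.69. The other probes of Relb gave means of -1.58 and -0.04.

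Among the survival targets of NF-kappaB, Cflar, an inhibitor of caspase-8, gave -1.92 and -1.18, Birc3 -1.40 and -0.92, and Traf1 -0.97 and -0.82. Cd83, a surface marker of activated B cells, gave -1.85 and -1.32 (7 of the 8 arrays in the fit). The adhesion molecule Icam1 gave -0.72 and -0.84, and the cytokine Il10 -0.82 and -0.38. In each of these genes both lines were low. Bcl3, at 0.02 and -0.19, was the member that did not pass. Of the 12 that moved alike, 11 were already at -0.58 or lower in both lines at 3 h, and the median of the list was nearer to 0 at 6 h (-0.90) than at 3 h (-1.08).

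Surface and cytokine genes of activated B cells were mixed, with 6 of 17 lower and 3 higher (3 and 5 with median centring). Tnf gave -1.25 and -1.27, and Cd69 -1.46 and -1.05, near the same value in both lines. Slamf1 gave -2.15 in line 178119 and -0.73 in line 28545, both below 0. Its log2 signal was 6.58 with drug and 8.73 with DMSO in line 178119, and 6.65 and 7.37 in line 28545. The drug signals were as dim as those of the neutrophil marker Camp (6.64 and 6.48). So the gap between the lines is not read as a difference in response. Il2ra, Tnfrsf9 and Cd274 rose, each with a mean under 0.58, and Il2ra gave 0.59 and 0.56. The median of the list was -0.24.

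Among the 15 genes with the lowest means, several belong to no list above. Plscr1, a phospholipid scramblase, read by a probe at chr9:92164754-92164813 (mm9), gave -2.38 and -2.22 (mean -2.30, SE 0.10, adjusted p = 5.13e-06), a 4.92-fold decrease. Ctla4, an inhibitory receptor best known on T cells, gave -2.51 and -1.54, and Il4i1, a secreted amino acid oxidase of activated B cells, -2.41 and -1.47. Slfn2 gave -2.08 and -1.58, the lysolipid transporter Mfsd2a -1.86 and -1.60, and Bcl2a1c, of the BCL2 family, -2.23 and -1.42. Line 178119 was lower than line 28545 for each of these 6 genes. Bcl2a1c has close paralogs whose transcripts a probe may not tell apart.

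Genes of ribosome biogenesis and other MYC targets were lower in both lines. Of 25 tested, 22 fell at 6 h and none rose, with a median of -0.91. None was higher and 18 were lower with the scanner's log ratios, 10 with median centring. Nolc1, a nucleolar chaperone, gave -1.85 in line 178119 and -1.55 in line 28545 (mean -1.70, SE 0.13, adjusted p = 7.05e-05). Gnl3, nucleostemin, gave -1.86 and -1.44, Srm, spermidine synthase, -1.53 and -1.69, and Rrp9, a processing factor of ribosomal RNA, -1.32 and -1.58. The lines differed by less than 0.5 in each. Subunits of RNA polymerase I fell, with Polr1b at -1.19 and -1.01. So did Bop1, of ribosome assembly (-1.12 and -1.23), the box C/D protein Nop56 (-0.94 and -0.85), the helicase Ddx21 (-1.06 and -1.07) and the transferrin receptor Tfrc (-1.66 and -1.12). Ncl, Npm1 and Cad did not pass, with Ncl at -0.14 and -0.43.

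Cluh, an RNA-binding protein for messengers of mitochondrial proteins whose promoter is shown above, gave -1.81 and -1.88 (mean -1.85, SE 0.10, adjusted p = 2.44e-05), a 3.59-fold decrease. Its other probe gave -1.28. Mtap, which recycles the methylthioadenosine made by polyamine synthesis, gave -1.65 and -1.79, and Ccdc86, a nucleolar protein, -1.72 and -1.67. The log2 signal of Mtap under drug was dim, 6.99 in line 178119 and 6.79 in line 28545, so the size of its decrease is uncertain. Hpdl, a mitochondrial enzyme, gave -2.17 and -1.49, and Hspa9, the mitochondrial Hsp70, -1.39 in each line (7 of the 8 arrays in the fit). Of 9 heat shock genes, Hsph1 (-1.13 and -1.02), Hspd1 (-0.63 and -0.79) and Bag3 (-0.32 and -0.54) fell, and 1 was lower and 1 higher with median centring.

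The MYC list was lowest at 6 h and the NF-kappaB list at 3 h. The median of the MYC list was -0.05 at 1 h, -0.60 at 3 h, -0.91 at 6 h and -0.41 at 24 h. The median of the NF-kappaB list was -0.25, -1.08, -0.90 and -0.38 at those times. Of the 18 MYC list genes that moved alike at 6 h, 8 were already at -0.58 or lower in both lines at 3 h, and 2, Ldha and Mybbp1a, were within 0.25 of 0 in both. These are descriptions, and the order of the lists in time was not tested.

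**Figure D2:**
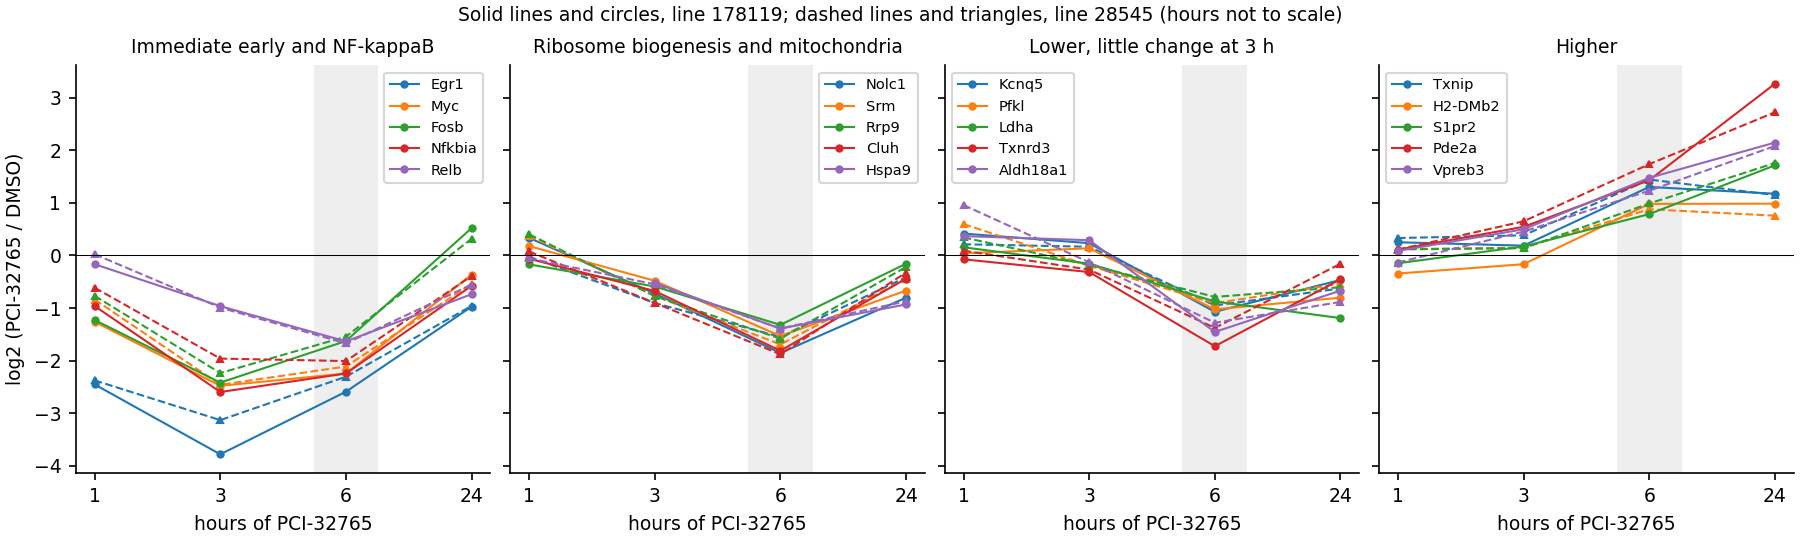
Log2 ratio of PCI-32765 over DMSO at 1, 3, 6 and 24 h (x axis, not to scale) for named genes, with 1 line per gene and cell line, solid for 178119 and dashed for 28545, and 6 h shaded. Egr1 and Fosb are lowest at 3 h, Nolc1, Srm and Cluh are lowest at 6 h, Pfkl and Kcnq5 lie between -0.19 and 0.23 at 3 h and at -0.91 or lower at 6 h, and Pde2a and S1pr2 keep rising to 24 h.

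No gene passed the test of 6 h minus 3 h with limma. Of 19274 genes, 3265 (16.9%) had an unadjusted p below 0.05, and the smallest adjusted p was 0.0648. Without 1 array the count was between 0 and 2, and with median centring in place of loess it was 57. So which genes moved between 3 and 6 h is given here as a description, by values in each line. Of the 1140 genes that moved alike at 6 h, 258 were already at 0.58 or more on the same side in both lines at 3 h (53 higher and 205 lower). Another 88 lay under 0.25 in both lines at 3 h (28 higher and 60 lower), and 794 lay in between. At 3 h, 1457 of all genes passed (7.56%), and 602 of the 1140 did so on the same side. At 1 h, 66 passed (0.343%), 27 of them among the 1140 on the same side.

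The median at 6 h was -0.73 for the 60 lower genes not yet moved at 3 h and 0.74 for the 28 higher ones, against -1.09 and 0.96 for the 205 and 53 genes already moved. The 60 lower genes kept their sign under each scaling, but 40 passed with the scanner's log ratios and 9 with median centring. All 28 higher genes passed under each scaling. With median centring the median over all genes lay at 0.25, so the counts of lower and higher genes passing there are not compared. Relative to that median all 60 lower and all 28 higher genes kept their direction.

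**Figure D3:**
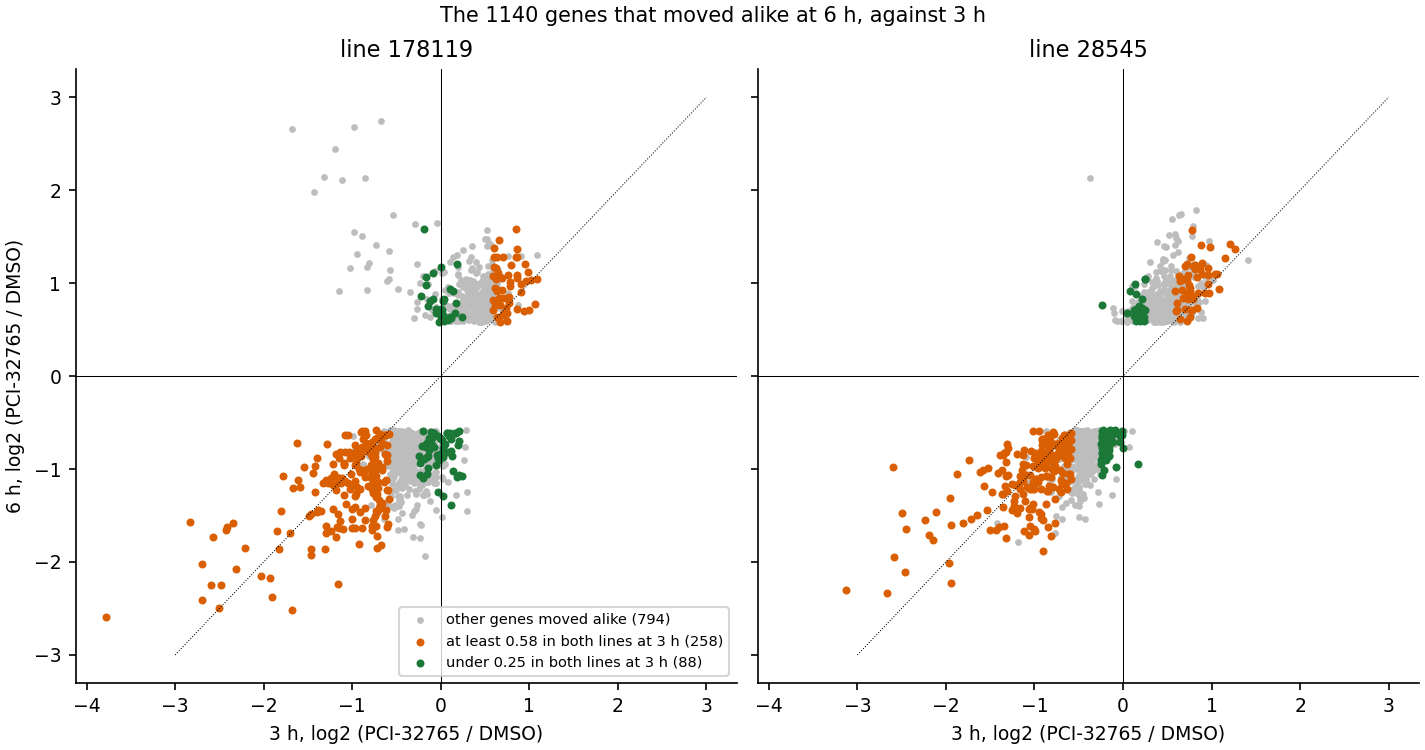
Log2 ratio of PCI-32765 over DMSO at 3 h (x axis) and 6 h (y axis) in each line, 1 point per gene of the 1140 that moved alike at 6 h, with the dotted line marking equal values. Genes under 0.25 in both lines at 3 h (88) form the columns next to 0, genes at 0.58 or more at both times (258) the outer groups, and in line 178119 a few genes lie at the upper left, low at 3 h and high at 6 h.

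The metabolic lists lay near 0 at 3 h and below it at 6 h. Of 19 genes of glycolysis and hypoxia, 10 fell and 1 rose at 6 h, with a median of 0.02 at 3 h, -0.40 at 6 h and -0.57 at 24 h. Pfkl, the liver type of phosphofructokinase, gave 0.14 and -0.19 at 3 h and -1.02 and -0.91 at 6 h in lines 178119 and 28545 (mean -0.97, SE 0.14, adjusted p = 0.00132). Ldha, lactate dehydrogenase A, gave -0.16 and -0.18 at 3 h and -0.87 and -0.79 at 6 h. Both genes were near 0 in both lines at 3 h and low in both at 6 h. The other probes of Ldha gave means of -0.40 and -0.11 at 6 h, the latter from its brightest probe (-0.16 and -0.06). So the size of the Ldha decrease rests on the probe used. Vegfa, a hypoxia target, gave -1.15 and -0.74 at 6 h, Hk2, hexokinase 2, -1.14 and -0.48, and Tpi1 -0.76 and -0.59. The log2 signal of Vegfa under drug was dim, 7.16 in line 178119 and 7.44 in line 28545. Gpi1 rose, at 0.59 and 0.30. With median centring 2 were lower and 3 higher, and the median of the list was 0.10, above 0, though below the median of all genes there, 0.25. With the scanner's log ratios 5 were lower and 0 higher.

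The ATF4 response supplies amino acids and their transport. Of 20 tested, 13 fell and 1 rose at 6 h. Counts of lower genes were 7 with the scanner's log ratios and 3 with median centring (median -0.12). The median went from -0.02 at 3 h to -0.51 at 6 h and -0.98 at 24 h. Chac1, which degrades glutathione, gave -0.24 and -0.42 at 3 h and -1.75 and -1.04 at 6 h. Aldh18a1, the first enzyme of proline synthesis from glutamate, gave 0.29 and -0.13 at 3 h and -1.45 and -1.28 at 6 h. Of 6 h minus 3 h, Aldh18a1 gave -1.45 (unadjusted p = 5.26e-05, adjusted p = 0.101). The amino acid transporter subunits Slc7a5 (-1.08 and -1.18; another probe, mean -0.44) and Slc3a2 (-0.98 and -0.94, 7 of the 8 arrays in the fit) and the synthetic enzymes Asns (-0.92 and -0.74), Phgdh (-0.83 and -0.74) and Shmt2 (-0.78 and -0.86, 7 arrays) also fell, each by a like size in both lines. Ddit4 rose, at 0.43 and 0.25. Of the 8 that moved alike none had reached 0.58 in both lines at 3 h.

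Of 19 cholesterol synthesis genes 10 fell and none rose, with a median of -0.35 at 3 h and -0.38 at 6 h. Lss, lanosterol synthase, gave -0.78 and -0.95, and Mvd, mevalonate diphosphate decarboxylase, -0.64 and -0.88. With the scanner's log ratios 2 were lower. With median centring none of the list passed as lower, 1 was higher, and its median was 0.02.

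Some genes of the late set were picked out after their values were seen. Trp53, the p53 gene, gave 0.11 and -0.23 at 3 h and -1.38 and -1.06 at 6 h (mean -1.22, SE 0.14), and 0.14 and -0.34 at 24 h. Of the 4 times, both lines were low at 6 h and at no other. Of 20 p53 target genes, 4 fell and 3 rose at 6 h, against 12.7% lower and 12.6% higher over all genes tested. Aen was at -0.86 and -0.77, and Trp53inp1 at 0.90 and 0.85. Gpt2, a mitochondrial alanine aminotransferase, gave 0.03 and -0.25 at 3 h, -1.29 and -0.90 at 6 h, and -2.40 and -2.20 at 24 h. The arginine methyltransferase Prmt3 gave -0.03 and -0.24 at 3 h and -1.25 and -0.83 at 6 h, and the cytosolic alanyl-tRNA synthetase Aars -0.08 and -0.18 and then -0.77 and -0.70 (7 arrays). The largest gap between 3 and 6 h by moderated t belonged to genes that did not pass adjustment. Kcnq5, a potassium channel, gave 0.23 and 0.17 at 3 h and -1.07 and -0.95 at 6 h (difference -1.21, unadjusted p = 6.01e-06, adjusted p = 0.0648). Wdr77, the partner of the methyltransferase PRMT5, gave -0.23 and -0.49 and then -1.59 and -1.35. Txnrd3, Nsun2, Utp20, Mettl1, Srm and Cluh were the next lower genes by this rule, with Txnrd3 at -0.31 and -0.27 and then -1.73 and -1.38.

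Cell cycle and survival genes split. Ccnd2, cyclin D2, gave -1.65 and -1.43 (mean -1.54, SE 0.10, adjusted p = 5.97e-05, 7 of the 8 arrays in the fit), and its partner Cdk4 -0.96 and -0.66. The CDK inhibitors Cdkn1b (p27) at 1.00 and 0.68 and Cdkn2d (p19) at 0.73 and 0.76 rose, so 3 of 14 genes of this list fell and 4 rose. Bcl2, the survival factor, gave -0.80 and -1.14 (mean -0.97, SE 0.10, adjusted p = 0.000264), and Bcl2a1d -1.67 and -0.97 (7 arrays). The death-promoting genes Bmf (0.78 and 1.20) and Bbc3 (0.66 and 0.32) rose, Bax fell (-0.42 and -0.64), and Mcl1 rose (0.47 and 0.35). Of 19 mitosis genes 5 rose and 1 fell, with a median of 0.17. Of 19 DNA replication genes 1 rose and none fell, against 12.6% higher and 12.7% lower over all genes tested. With median centring 8 mitosis genes and 8 DNA replication genes were higher and none lower. Under that scaling only 7.38% of the 4094 calls over all genes were lower.

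**Figure D4:**
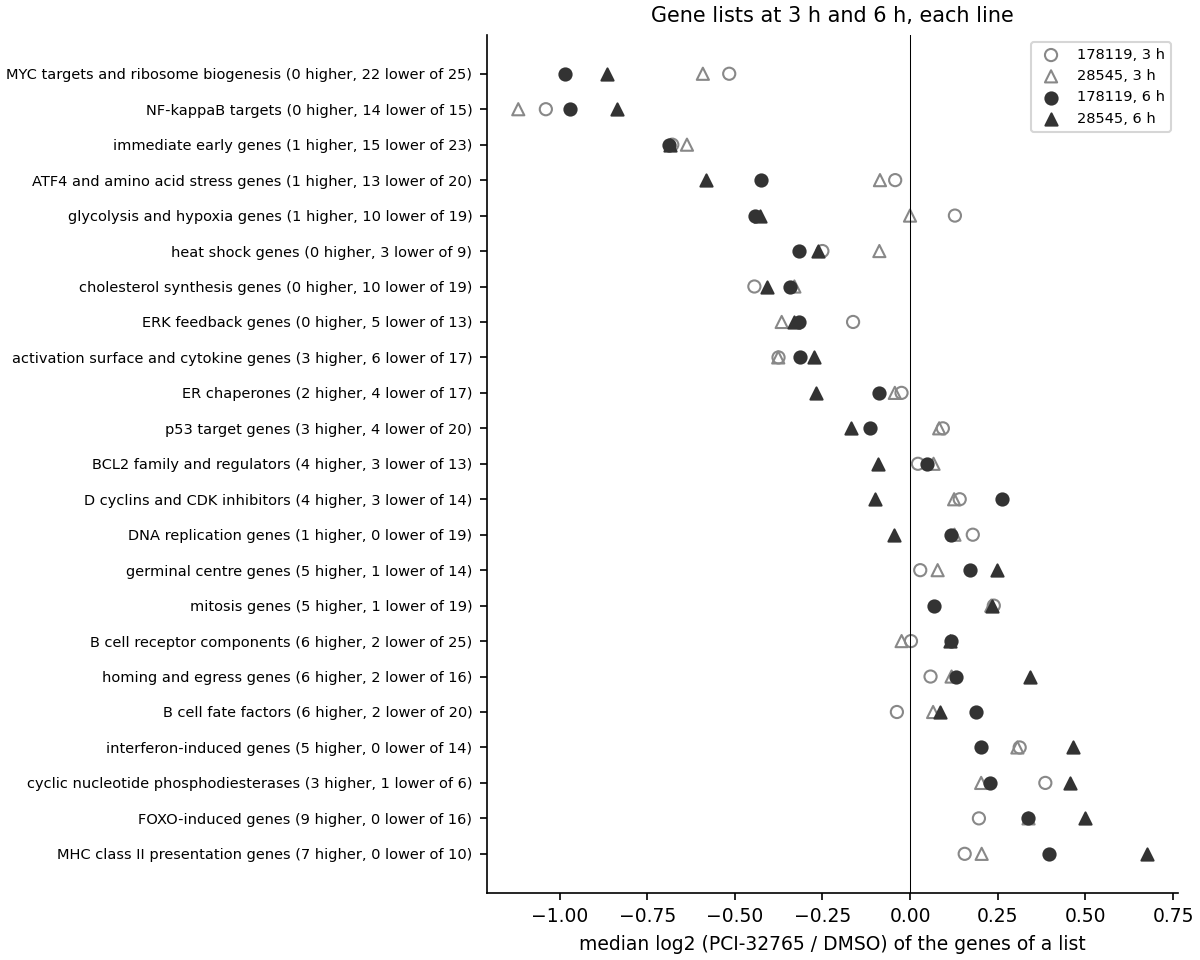
Median log2 ratio of PCI-32765 over DMSO of each gene list (x axis) at 3 h (open) and 6 h (filled) in line 178119 (circles) and line 28545 (triangles), with the numbers of genes called at 6 h beside each list name. The MYC, ATF4 and glycolysis lists lie further from 0 at 6 h than at 3 h in both lines, the NF-kappaB list lies nearer to 0, and the MHC class II and FOXO lists lie at the right end.

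Genes induced by FOXO factors were higher. Of 16 tested, 9 rose and none fell at 6 h, with a median of 0.52. Txnip, an inhibitor of thioredoxin and of glucose uptake, gave 1.30 in line 178119 and 1.45 in line 28545 (mean 1.38, SE 0.09, adjusted p = 5.75e-05, probe at chr3:96365147-96365206, mm9). Its log2 signal was 12.38 with drug and 11.08 with DMSO in line 178119, and 12.13 and 10.69 in line 28545. At 3 h Txnip stood at 0.19 and 0.38, and 6 h minus 3 h was 1.09 (unadjusted p = 1.17e-05, adjusted p = 0.0648). The other probe gave a mean of 0.74 at 6 h. Ccng2 gave 1.01 and 1.07, Sesn3 0.85 and 0.56, and Irs2 0.61 and 0.82. Foxo1, Foxo3, Klf2, Ccr7, S1pr1, Sesn1 and Trib2 did not pass.

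Genes of MHC class II presentation rose as well, 7 of 10 higher and none lower, with a median of 0.22 at 3 h, 0.52 at 6 h and 0.85 at 24 h. The peptide-loading chains gave 0.92 and 0.85 for H2-DMa, 0.99 and 0.72 for H2-DMb1 and 0.98 and 0.88 for H2-DMb2. H2-DMb2 had stood at -0.17 and 0.15 at 3 h, near 0 in both lines. H2-Ab1 gave 0.84 and 0.86 (7 arrays), and H2-Eb2, outside the list, 1.39 and 1.79 (mean 1.59, SE 0.13, adjusted p = 8.13e-05). Ciita, the coactivator of these genes, gave 0.37 and 0.09 and did not pass. Of 14 interferon-induced genes, 5 rose and none fell, with Irf7 at 0.64 and 1.07.

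Of 14 germinal centre genes 5 rose and 1 fell. Bcl6, the repressor that defines germinal centre cells, gave 1.17 and 0.94 (mean 1.06, SE 0.10, adjusted p = 0.0002), and S1pr2, which confines cells to the follicle, 0.79 and 0.99 after 0.17 and 0.14 at 3 h. Neil1, a DNA glycosylase, gave 1.01 and 0.90 (another probe, mean 0.48). Lmo2 fell, at -0.83 and -0.84. Among factors of B cell fate, Irf4, which drives plasma cell differentiation and is itself an NF-kappaB target, fell to -1.61 and -1.42 (mean -1.52, SE 0.11, adjusted p = 6.31e-05). Spib rose, at 1.28 and 0.83, while Prdm1 and Pax5 did not pass. Tcf4 rose, at 0.81 and 0.68, but its other probe gave a mean of 0.07.

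Of 25 transcripts of the receptor pathway itself 6 rose and 2 fell, against 12.6% higher and 12.7% lower over all genes tested. With median centring 12 were higher and 0 lower, but there only 7.38% of the 4094 calls over all genes were lower. Btk, the drug's target, gave -0.04 and -0.03 (mean -0.03, SE 0.11, adjusted p = 0.859), and its other probe gave -0.31. Malt1, the protease of the NF-kappaB branch, gave 0.65 and 0.66 (adjusted p = 0.00171). Blnk, the adaptor that brings Btk to phospholipase C gamma, gave 1.17 and 0.87, measured on 5 of the 8 arrays. The phosphatase Inpp5d (0.61 and 0.49) and the kinase Lyn (0.52 and 0.52) rose. Syk gave -0.65 and -0.42, but its other probe gave 0.14, so its direction is not settled. Of 9 B cell markers 4 rose and none fell, with Ms4a1 (CD20) at 0.91 and 1.22 and Fcrla at 0.92 and 1.31 (7 arrays). In line 178119 Ms4a1 had stood at -1.15 at 3 h, and so was among the 160 genes described above.

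Other genes with the highest means were of varied function. Pde2a, a phosphodiesterase of cyclic nucleotides, gave 1.43 and 1.74 (mean 1.59, SE 0.13, adjusted p = 9.38e-05) and reached 3.27 and 2.73 at 24 h. Of 6 phosphodiesterases 3 rose, Pde4a and Pde7a with Pde2a, and 1, Pde4b, fell. Usp2, a deubiquitinase, gave 1.58 and 1.38, Edem3, of endoplasmic reticulum degradation, 1.28 and 1.57, Myom2 1.40 and 1.51, and Vpreb3 1.48 and 1.23. These 5 leading genes were high in both lines, and close to each other.

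Histone and small nuclear RNA genes differed more in size between the lines. Of 37 histone genes, 17 rose and none fell at 6 h, with a median of 0.69 in line 178119 and 0.27 in line 28545. H4c4 gave 2.44 in line 178119 and 0.67 in line 28545 at 6 h, and -1.20 and 0.05 at 3 h. Rnu1b6, a U1 small nuclear RNA gene, gave 2.68 and 0.68 at 6 h, and -0.98 and -0.10 at 3 h. So the size of these means rests on line 178119. Histone genes are near-identical copies, and a probe may not tell them apart. Probes for long non-coding RNA intervals were called in 368 of 2697 cases, 250 higher and 118 lower, against 25.3% over all genes tested. Called or not, 1579 of these probes lay above 0 and 1118 below.

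Few markers of other cell types passed. None of 11 T cell, 3 NK cell or 4 neutrophil markers tested passed, against 25.3% of all genes tested. Lists this short say little. Csf1r, of 7 macrophage markers, passed at 1.34 and 0.46, but its other probes gave -0.02 and 0.14 and it was one of the 160 genes above. Epor, of 4 erythroid markers, passed at -1.23 and -0.86, with dim log2 signals under drug of 7.42 in line 178119 and 6.94 in line 28545. Lyz2, Cd14, S100a8, Ncr1 and Alas2 were above background on neither 6 h array. In these cultures, fewer cells that make a transcript and less transcript per cell cannot be told apart.

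A difference between times is free of a constant dye effect. From 1 h to 6 h, 3041 of 19242 genes (15.8%) passed with limma, 1342 upwards and 1699 downwards. Of the 1140 genes that moved alike at 6 h, 955 passed this difference on the same side, 321 higher and 634 lower. Both comparisons use the same 6 h arrays. The count was 664 without line 178119 at 6 h, 887 without it at 1 h and 1413 without line 28545 at 1 h, and it was 226 with the scanner's log ratios. For Myc 6 h minus 1 h was -1.13 (adjusted p = 0.00375), for Nolc1 -1.86 (0.00136) and for Txnip 1.08 (0.00238). Egr1, which was as low at 1 h as at 6 h, gave -0.03 (adjusted p = 0.931).

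At 24 h, 4768 genes passed, near the number at 6 h. Between 6 and 24 h, 1367 of 19290 genes (7.09%) passed with limma. Among the 1140 genes, 351 of those passing had moved back towards 0 (68 higher and 283 lower at 6 h), and 22 had moved further from 0 (19 higher and 3 lower). The 1140 were chosen for their size at 6 h, so that nothing is read from this. The count over all genes was 31 without line 178119 at 6 h, 451 without it at 24 h, 624 without line 28545 at 6 h and 799 without either array at 3 h, whose loss changes only the spread. With the scanner's log ratios it was 0. Myc went from -2.25 and -2.11 at 6 h to -0.36 and -0.54 at 24 h, and Nfkbia from -2.25 and -2.01 to -0.58 and -0.39. Cluh went from -1.81 and -1.88 to -0.44 and -0.32. Pde2a, Vpreb3 and S1pr2 moved further up, to 1.72 or more in both lines at 24 h, and Chac1 further down, to -2.66 and -2.21.

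The series also holds splenic B cells stimulated through the receptor with 15 ug/ml anti-IgM, from ATMWT.CD3epsilonKO and ATMKO.CD3epsilonKO mice, each set against a common reference pool. The samples whose titles give 6 h carry 3 hours in 1 field of their labels, so that the time rests on the titles. They give a readout of receptor signalling on other arrays, in normal and not in lymphoma cells. A limma test over 6 samples, with 3, 6 and 24 h of anti-IgM under 1 term, called no gene (1685 with an unadjusted p below 0.05, smallest adjusted p 0.464). It is thus no test of 6 h. With the 6 h and untreated samples only it called 6334 of 22326, with few samples left to estimate the spread. The ATMWT fold rests on 1 stimulated and 1 untreated array. Values are therefore given as folds at 6 h. Of 18863 genes on both kinds of array, 7.23% were at 0.58 or more over untreated in both genotypes and 9.13% at -0.58 or less.

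Of the 703 genes lower alike under PCI-32765 and measured in both, 383 (54.5%) were at 0.58 or more under anti-IgM in both genotypes and 27 (3.84%) at -0.58 or less. They made up 28.1% of all genes at 0.58 or more under anti-IgM. Their median under anti-IgM was 0.75 in ATMWT and 0.79 in ATMKO cells, against -0.04 and -0.05 over all genes. Of the 430 genes higher alike, 144 (33.5%) were at -0.58 or less under anti-IgM, 8.36% of all such genes, and 7 (1.63%) at 0.58 or more. The drug and anti-IgM values correlated across genes with r = -0.38 in ATMWT and -0.35 in ATMKO cells, as a description. Of the 205 lower genes already moved at 3 h, 53.2% were at 0.58 or more under anti-IgM and 7.32% at -0.58 or less. Of 59 not yet moved these shares were 52.5% and 1.69%, and the differences were not tested.

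Of the MYC list 21 of 25 genes were at 0.58 or more under anti-IgM in both genotypes and none at -0.58 or less. Of 19 glycolysis and hypoxia genes 12 were at 0.58 or more and 1 at -0.58 or less, and of 20 ATF4 genes 11 and 0. Cluh stood at 1.37 and 1.54 under anti-IgM in ATMWT and ATMKO cells, Srm at 1.27 and 1.84, Pfkl at 0.60 and 0.94, and Chac1 at 2.48 and 2.20. Of the genes higher under PCI-32765, Txnip stood at -1.94 and -3.21, Vpreb3 at -2.73 and -2.59 and Pde2a at -1.58 and -1.41. Of 23 immediate early genes 3 were at 0.58 or more and 10 at -0.58 or less under anti-IgM in both genotypes. Of 15 NF-kappaB targets 2 were at 0.58 or more and 0 at -0.58 or less. Fos stood at -5.73 and -5.41 and Fosb at -4.31 and -5.71 under 6 h of anti-IgM, low as under the drug, and Nfkbia at -0.27 and -0.85. Myc was at 0.21 in ATMWT and -1.38 in ATMKO cells, and Irf4 at 0.47 and -1.26, on opposite sides of 0.

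**Figure D5:**
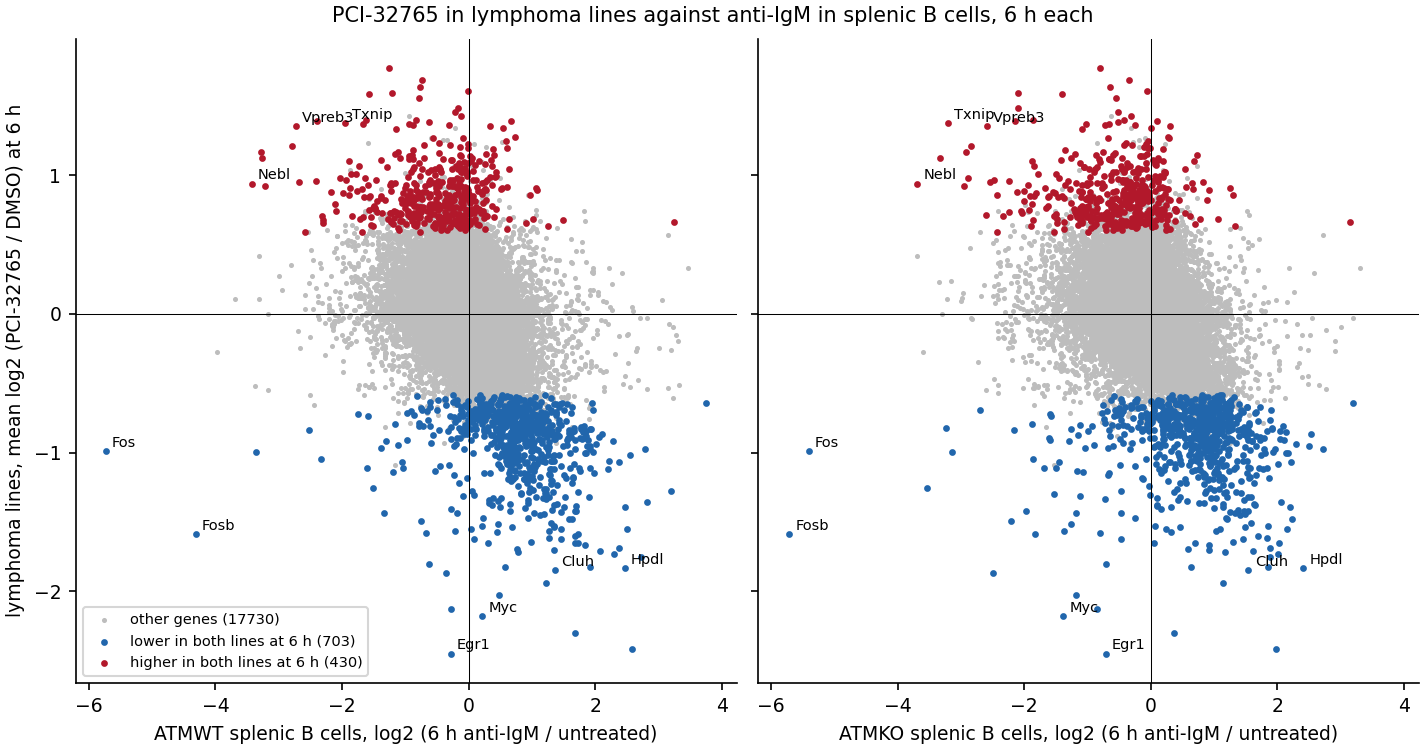
Mean log2 ratio of PCI-32765 over DMSO at 6 h in both lymphoma lines (y axis) against log2 of 6 h of anti-IgM over untreated in ATMWT (left) and ATMKO (right) splenic B cells (x axis), 1 point per gene. Most of the 703 genes lower under the drug lie right of 0 and most of the 430 higher genes left of it, with Fos and Fosb at the far left among the lower genes.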

How the data were processed

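RNA was labelled and hybridised to Agilent 2-colour arrays of 62976 spots. The authors deposited the scanner output, whose intensity values are linear and not normalised, with Feature Extraction 10.1.1.1 per the file headers and 9.1 and limma per the submitters' processing notes. The deposited value table holds the scanner's log10 ratio of red over green, equal within 0.0005 to the log ratio in the scanner files, sign included, and served as an alternative.

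From the mean and background median signals, limma 3.58.1 (R 4.3.3, the data.table package, 1.17.8) computed normexp with an offset of 50 and loess within each array, with control and outlier spots at weight 0. Spots of a probe were averaged, probes were kept that the scanner called well above background, red or green, on a share of 0.5 or more of the 8 drug arrays, and 1 probe stood for each gene, the brightest of those measured on all 8, or else on both 6 h arrays. Genes missing on a 6 h array were left out (375), and 926 of the 19295 tested lack another array, 787 of them line 178119 at 1 h. Symbols came from RefSeq (GRCm38.p6) by accession for 27235 of 55681 probes (48.9%), otherwise from the files, and 16194 probes read long non-coding RNA intervals. Probe coordinates are mm9, as the files give them; exons were not analysed here.

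One mean per time was fitted with lmFit and eBayes (4 residual degrees of freedom), and p-values were adjusted by Benjamini-Hochberg over all genes tested. Array number limits the precision. Lines count as the replicates, and p-values measure the spread between these 2 lines. Whether the lines pair across times was checked by the correlation over genes of the line difference at each pair of times, which ran from -0.35 to 0.23, so that the line term is an alternative only. Anti-IgM samples titled 6 h have a time field of 3 hours, and titles were used; technical repeats were averaged.

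The named genes are the 15 largest mean changes each way among genes alike in both lines, the 10 largest each way of 6 h minus 3 h, filled up by moderated t, up to 4 members of each of 29 lists, and 14 genes fixed by name. Other genes are list members given in counts, or are said to be chosen after their values were seen. The members and lists were chosen with earlier results of these data known. Alternatives covered scaling, offset, filters, probe rule, outlier spots, each array left out and the line term. Another 24 columns of per-sample values, of other samples of the series, were not used. Figures and promoter searches used Python 3.11.15 with pandas 2.3.3, numpy 2.4.6 and matplotlib 3.10.9. Some genes are not reported here.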

Additional observations from a re-analysis of the deposited data

Results flagged for a closer look

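The response differed between times by a test of the difference itself. From 1 h to 6 h 3041 genes passed with limma, and from 6 h to 24 h 1367 did.

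Among the named genes, 4 passed at both 6 and 24 h on opposite sides of 0 and also passed the difference of 24 h minus 6 h. Calls on opposite sides make that difference large, so passing it adds little. Fosb, low at 6 h (-1.63 and -1.54 in lines 178119 and 28545), stood at 0.52 and 0.32 at 24 h, a difference of 2.01. The mitotic genes Ccnb2, cyclin B2, Plk1, a mitotic kinase, and Cenpe, a kinetochore motor, went the other way. Ccnb2 went from 0.39 and 0.65 to -0.59 and -0.53 (difference -1.08), Plk1 from 0.59 and 0.21 to -0.73 and -0.57 (difference -1.05), and Cenpe from 0.28 and 0.39 to -0.67 and -0.57 (difference -0.95). The 6 h calls of the mitotic genes were the less stable ones. That of Cenpe was lost in 4 of 20 alternatives, among them without either 6 h array, that of Plk1 in 7, among them without line 178119 at 6 h, and that of Ccnb2 in 1, without line 28545 at 6 h. That of Fosb was lost in 0. With the scanner's log ratios 0 genes passed 24 h minus 6 h. At 24 h the array of line 28545 had 85.5% of its spots well above background in the red channel, and its part in these differences was not tested.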

How the results depend on the processing

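With 2 lines, 1 array each and no dye swap, 6 h alone leaves little to estimate the spread. The 6 h test called 4872 genes, and 2298 with the scanner's log ratios. Median centring called 57 genes for 6 h minus 3 h (0 with loess), 1913 for 6 h minus 1 h (3041), 134 for 24 h minus 6 h (1367) and 74 for the line term (0). The scanner's log ratios called 226 for 6 h minus 1 h and 0 for 24 h minus 6 h, where an offset of 16 called 889. The anti-IgM test called 6334 with the 6 h and untreated samples only, where few samples are left to estimate the spread, and 0 otherwise. Without each array in turn, the counts ran from 1495 to 5366 at 6 h, from 0 to 2 for 6 h minus 3 h, from 664 to 3456 for 6 h minus 1 h, from 31 to 1491 for 24 h minus 6 h, and stayed at 0 for the line term and anti-IgM. A single 6 h array takes its spread from the other times. The cause of these moves was not tested.

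With the cell line as a replicate block the 6 h test called 4487 genes, 6 h minus 1 h 2500, 24 h minus 6 h 1085 and 6 h minus 3 h 0. Of the 4872 calls at 6 h, 90.1% were still called with the block, 44.6% with the scanner's log ratios, 51.5% with median centring, 28.7% without line 178119 at 6 h and 52.2% without line 28545. Between 99.5% and 100% kept their sign under each setting but median centring, where 92.1% did. Bub1b, at -0.37, was at 0.065 with median centring. Syk, at -0.53, was at 0.14 under 3 settings that take its other probe: the 6 h arrays alone, without line 178119 at 1 h, and outlier spots kept. Without each array in turn Syk ran from -0.65 to 0.14.

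The 3 alternatives chosen after seeing the data were genes with a missing spot left out, outlier spots kept, and no histone, small nuclear RNA or mitochondrial genes.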

Other observations

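Of the 2184 genes called at both 6 and 24 h, 2060 lay on the same side of 0 at both times. The other 124 lay on opposite sides, 98 of them higher at 6 h and lower at 24 h and 26 the reverse, 7 histone genes included. All 124 passed the difference between the times, which nearly follows from calls on opposite sides. Lmo2, a transcription regulator of the germinal centre list, was among the 26.

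The lists reached their extremes at different times. Mitosis genes had a median of 0.17 at 6 h and -0.67 at 24 h, and DNA replication genes 0.07 and -0.50. The ATF4 list stood at -0.51 at 6 h and -0.98 at 24 h.

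Line 178119 and line 28545 differed in how their own times related across genes, described with no test. The log2 ratios at 3 h and 6 h correlated with r = 0.22 in line 178119 and 0.75 in line 28545, and those at 1 h and 6 h with r = -0.25 and 0.04. Between the lines, r was 0.39 at 1 h, 0.71 at 3 h, 0.73 at 6 h and 0.67 at 24 h. Points of a pair share probes and, within a line, cells.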
